A study of Homo sapiens with 6 samples.

Results

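The genes with a measurable transcript signal in control siRNA treated A2058 cells are described here. A2058 is an established human melanoma cell line, and the cells were grown in DMEM with 10% fetal bovine serum and treated with a non-targeting control siRNA for 48 h. The members are the array probes with a detection value under 0.01 on each of the 3 control arrays. They were 8157 of the 47289 probes with values, which is 17.2% of the array, and stood for 6761 of 16225 named genes. The detection value compares a probe with the negative control beads of the same array, and a smaller value means that fewer of those beads were as bright. A gene was called above background when at least 1 of its probes met this rule on 3 of 3 arrays.

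The study compared A2058 cells treated with CT16 siRNA or with control siRNA, with 3 arrays in each group and 6 arrays in all. Total RNA came from separate cultures according to the series design, while the methods speak of RNA triplets, and the spread given below is the spread between these 3 samples. The RNA was amplified, labelled with biotin and hybridized on Illumina Sentrix Human-6 BeadChips, which read 1 sample per array in 1 colour. Only the control siRNA arrays, called replicates 1, 2 and 3, are described. All values thus come from 1 transfected cell line, and every control array carried the siRNA treatment, so that untreated cells are not part of the description.

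Melanoma arises from melanocytes, the pigment cells derived from the neural crest. In these cells the transcription factors SOX10 and PAX3 drive MITF, and MITF drives the genes that make melanin inside melanosomes, the organelles of pigment synthesis. MITF binds the short DNA motif CATGTG, a form of the E-box. Melanoma cells can hold more of this pigment programme or less of it, and those with less of it often carry genes of adhesion, matrix remodelling and inflammation, such as AXL. Cancer-testis genes are normally active in germ cells and are often switched on in melanoma.

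Promoters of pigment genes are shown because the gene lists below turn on this programme, and because genes with the same motif lay on both sides of the detection limit. Each sequence holds 250 bases before and 50 bases after the start site (RefSeq, GRCh38.p14), 5′ to 3′ on the strand of the gene, and the capitals mark CATGTG or its reverse complement CACATG. TYR encodes tyrosinase, which starts melanin synthesis, and GPNMB encodes a melanosome glycoprotein. TYRP1 encodes an enzyme of the same pathway, and GPR143 a melanosome receptor. TYR and GPNMB were above background on 3 of 3 arrays, TYRP1 on 1 array, and GPR143 on none.
TYR, chr11:89177625-89177924, plus strand: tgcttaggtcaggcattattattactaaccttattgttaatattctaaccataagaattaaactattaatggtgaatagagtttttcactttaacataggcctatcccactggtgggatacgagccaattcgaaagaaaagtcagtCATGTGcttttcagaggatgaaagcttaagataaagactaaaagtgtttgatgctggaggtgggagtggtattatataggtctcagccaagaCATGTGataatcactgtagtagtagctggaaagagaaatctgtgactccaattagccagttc
GPNMB, chr7:23246525-23246824, plus strand: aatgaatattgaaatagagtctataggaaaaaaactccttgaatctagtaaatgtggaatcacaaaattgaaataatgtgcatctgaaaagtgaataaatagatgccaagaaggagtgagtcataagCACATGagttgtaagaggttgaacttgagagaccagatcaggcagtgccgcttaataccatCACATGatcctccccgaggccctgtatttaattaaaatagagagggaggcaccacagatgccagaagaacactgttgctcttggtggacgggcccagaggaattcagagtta
TYRP1, chr9:12693135-12693434, plus strand: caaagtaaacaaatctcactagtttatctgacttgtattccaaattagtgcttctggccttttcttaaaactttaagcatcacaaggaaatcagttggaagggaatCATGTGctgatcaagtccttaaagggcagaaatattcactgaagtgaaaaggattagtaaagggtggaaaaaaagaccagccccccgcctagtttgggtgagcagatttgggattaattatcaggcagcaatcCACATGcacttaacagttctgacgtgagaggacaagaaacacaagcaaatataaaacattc
GPR143, chrX:9765798-9766097, minus strand: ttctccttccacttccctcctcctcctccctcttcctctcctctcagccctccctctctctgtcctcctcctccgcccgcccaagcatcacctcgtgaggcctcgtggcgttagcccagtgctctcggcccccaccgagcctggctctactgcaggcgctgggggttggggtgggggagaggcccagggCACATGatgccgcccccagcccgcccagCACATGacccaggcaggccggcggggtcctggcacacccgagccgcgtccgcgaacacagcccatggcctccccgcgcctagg

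Each of these 4 promoters held 2 matches. The motif, searched on both strands, was found in 3897 of 35116 RefSeq promoters of this length (11.1%), or in 3651 of 27305 genes (13.4%). Of the 20 pigment and melanosome genes above background, 14 had a promoter in the table and 6 of these held it. PMEL, RAB38, BACE2 and SLC45A2 were among those left out. Of the 9 genes above background on 0 to 2 arrays, all had a promoter and 7 held it. These counts are therefore not compared. The promoters with the motif thus included genes on both sides of the limit, and a match is a description of the letters only.

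Of the 47289 probes, 35998 were not above background on any control array, 2031 were above it on 1 array and 1103 on 2 arrays. The arrays differed in how many probes passed, with 8912, 9630 and 10166 in replicates 1, 2 and 3. Replicate 1 had the highest median signal (190.6, against 169.7 and 164.5) and the lowest maximum (37936.3, against 51805.2 and 53683.8). The lowest signal that passed was 235.6 in replicate 1 and 195.3 in replicate 3, so that replicate 1 set the limit most often. It was the missing array for 795 of the probes above background on the other two, against 250 for replicate 2 and 58 for replicate 3.

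Gene symbols were known for 18468 probes, of which 6968 (37.7%) were members. The remaining 28821 probes had no symbol here, and 1189 of them (4.13%) were members. Counted by gene, 6761 of 16225 named genes were above background (41.7%), 1730 were above it on 1 or 2 arrays, and 7734 on none. The share of 41.7% is the background against which each gene list below is read. The median signal of the genes above background was 511.2.

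Just inside the limit, the largest detection value of a gene over the 3 arrays was 0.00989, for ZFP82, INSIG2, PABPC4, EPC2 and ZMYND10. The signals of INSIG2 were 277.5, 200.1 and 244.2 in replicates 1, 2 and 3. Just outside were PLD2, WSCD1 and LCE3A at 0.0105, and PLLP and KRT19 at 0.0112. KRT19, a keratin of simple epithelia, had signals of 235.5, 227.4 and 210.5, and only replicate 1 kept it out. Genes on either side of the limit thus had much the same signals.

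The highest signals came from genes of protein synthesis, the cytoskeleton, the extracellular matrix and glycolysis. RPL41, which encodes the smallest ribosomal protein, had signals of 37936.3, 51805.2 and 53683.8 in replicates 1, 2 and 3, the highest of all probes on each array. RPL35, UBB (a ubiquitin gene) and RPS14 followed, with means of 41380.3 ± 6636.8, 40165.3 ± 7063.7 and 39172.0 ± 5022.6 (SD, n = 3). Cytosolic ribosomal protein genes made up 12 of the first 25 genes, 25 of the first 50 and 39 of the first 100. Of the 68 such genes with a probe, 67 were above background. The exception was RPL10, whose single probe had a mean signal of 154.3 and was not above background on any array. A probe at background thus gave no level for its gene, and it is not read below as a missing transcript.

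Of the other genes among the first 25, PFN1 and ACTB encode the actin-binding protein profilin 1 and actin, and H4C3 a histone H4. EEF1G and EEF1D encode elongation factors of translation. ENO1 and GAPDH encode glycolytic enzymes, and ATP5F1B the catalytic beta subunit of the mitochondrial ATP synthase. MIF encodes a cytokine and LGALS1 the sugar-binding lectin galectin 1. SPARC and MMP1 were the matrix genes in this set. SPARC, a secreted protein that binds collagen and is prominent in melanoma, had signals of 29035.0, 32469.3 and 38811.4. MMP1, the interstitial collagenase, had 19808.2, 26569.7 and 25816.0. Both were among the 25 highest probes on every array, with ranks over all probes of 7 to 16 for SPARC and 20 to 23 for MMP1. Without normalization, replicate 1 gave the lowest value for each of the 25 genes.

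**Figure D1:**
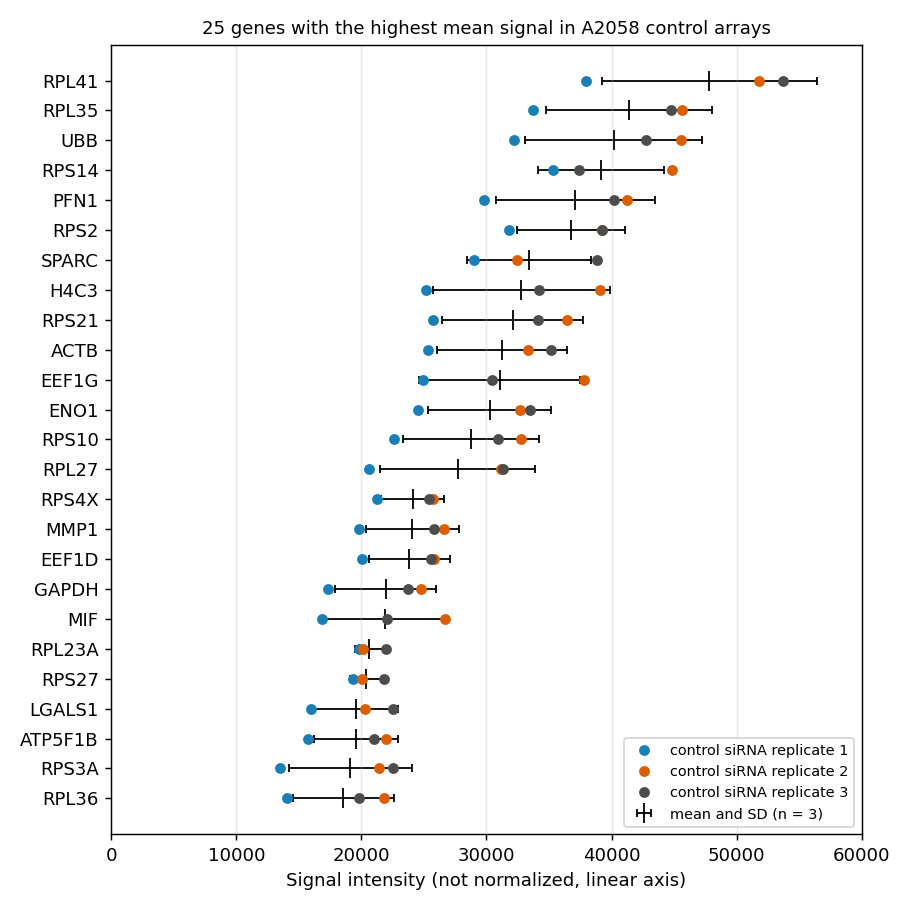
Signal of the 25 genes with the highest mean, not normalized, in each control siRNA replicate (points), with the mean and SD over 3 arrays (black). RPL41 leads with a mean of 47808.4, RPL36 closes the set at 18565.5, and replicate 1 has the lowest point for every gene.

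The order is one of probe signals and not of transcript amounts. For 191 genes, several probes were above background, and the brightest and dimmest of them differed by a median of 2.01-fold and by up to 58.3-fold. ALDOA, an aldolase of glycolysis, was one such gene, with 4 probes at means of 12817.6, 3162.0, 213.0 and 178.3. Among 1614 genes with several probes, 126 had all of them above background on 3 arrays, 621 had none above background on any array, and 558 had 1 probe at 3 arrays and another at 0. In addition, 6 of the 25 highest probes had no gene symbol and are not named. Ribosomal protein, actin and ubiquitin genes have near-identical copies elsewhere in the genome, so that their probes may read more than 1 gene.

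Of the 3 lists of melanocyte genes, 8 of 19 on the transcription factor list (42.1%) were above background. Of pigment and melanosome genes 20 of 29 passed (69%), and of surface and neural crest genes 16 of 21 (76.2%). The share over all named genes was 41.7%. For lists that mark other cell types the count was 15 of 118 (12.7%). The pigment list also holds genes of cargo sorting, such as AP3D1 and BLOC1S1, and the surface list holds CD63. These are not restricted to melanocytes, so that the shares are not read as a melanocyte signature. The melanocyte markers of the line were mixed. SOX10, PMEL, TYR and MITF were above background, PAX3 and KIT passed on 2 arrays and TYRP1 and S100B on 1. MLANA, TFAP2A, SOX9, GPR143, SLC24A5, TRPM1 and MCAM passed on none.

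**Figure D2:**
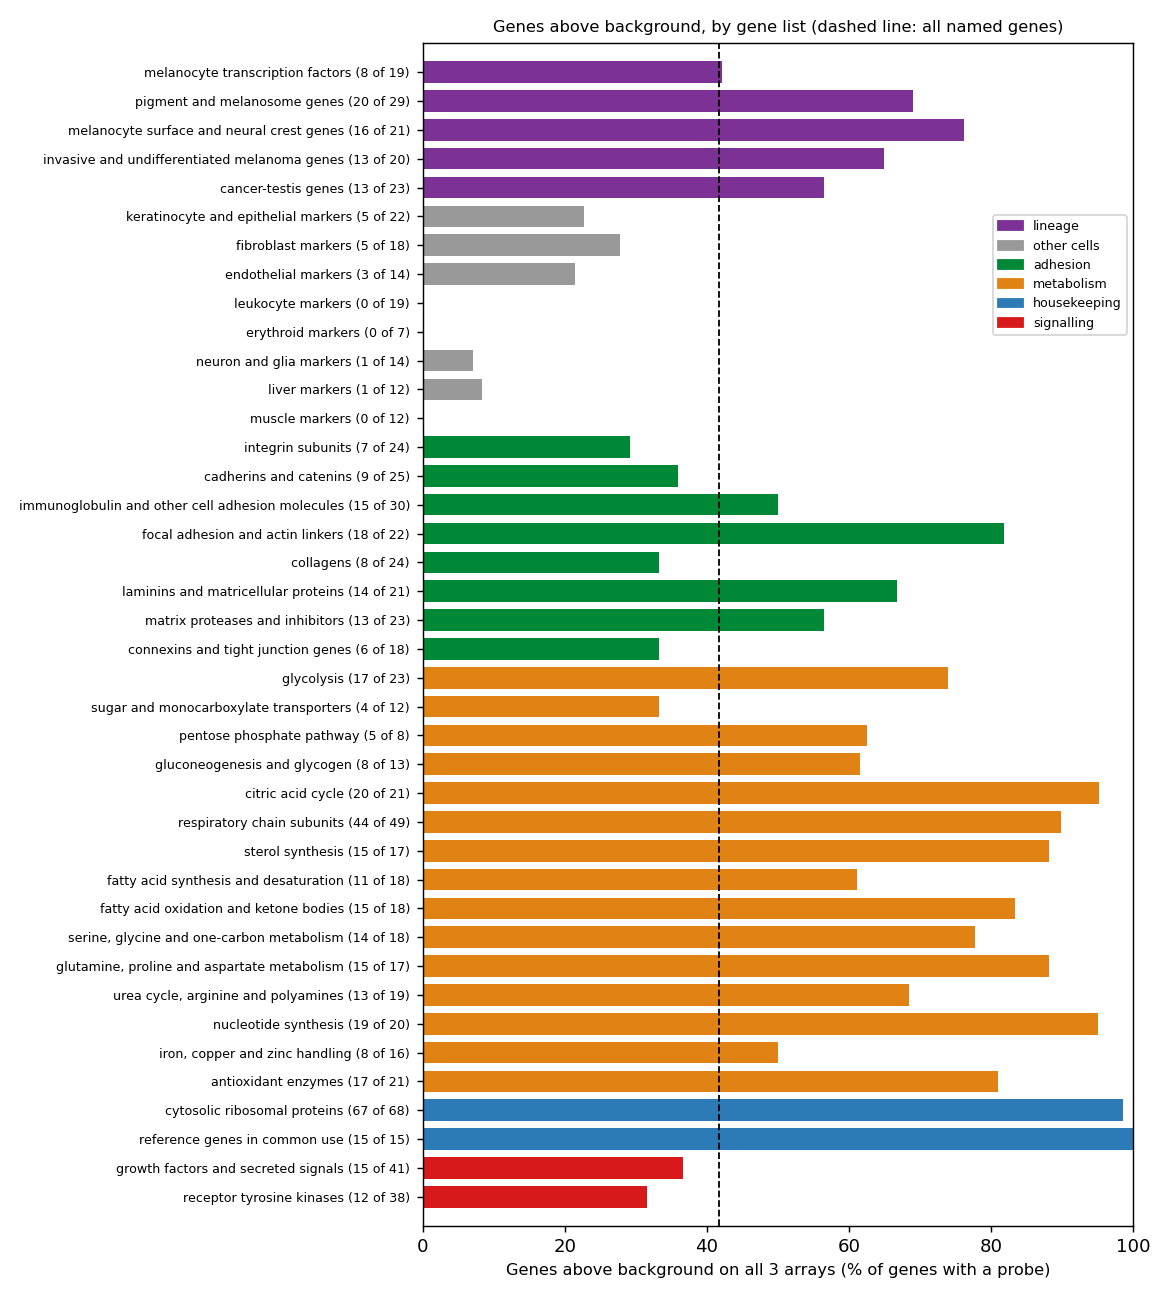
Share of genes above background on all 3 control arrays in each of 40 gene lists (bars, counts in brackets), with the share over all named genes as a dashed line at 41.7%. Ribosomal, citric acid cycle and nucleotide lists lie near the right edge, while leukocyte, erythroid and muscle markers are at 0.

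On the list of melanocyte transcription factors, 8 of 19 genes were above background, close to the share over all genes. The 19 genes include KITLG, a secreted ligand and not a transcription factor, which passed on no array. SOX10, the neural crest factor that maintains the lineage, had signals of 3594.9, 3717.3 and 4275.2 in replicates 1, 2 and 3. MITF had 600.3, 417.0 and 638.5 with its brightest probe, lowest in replicate 2. Of its other probes, 1 was above background on 1 array and 1 on none. ETV5, an ETS factor downstream of MAPK signalling, had a mean of 2696.0 ± 75.4 (SD, n = 3). ID3 (811.7 ± 82.5), LEF1 (573.1 ± 57.3) and TWIST1 (511.0 ± 42.6) completed the 6 highest. ID3 restrains basic helix-loop-helix factors, LEF1 acts at the end of Wnt signalling, and TWIST1 takes part in epithelial-mesenchymal transition.

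PAX3, which acts upstream of MITF, was at the limit, with signals of 227.5, 258.1 and 212.6 and a detection value under 0.01 on 2 of 3 arrays. POU3F2 (BRN2) and ETV1 also passed on 2 arrays and TFE3 on 1. SOX9, SOX5, TFAP2A, ZEB1, FOXD3 and TFEB were not above background on any array, with mean signals of 163.7 to 179.6. ZEB2 (336.6 ± 61.9) and SNAI2 (297.4 ± 22.3), which like ZEB1 can repress epithelial genes, were above background on 3 of 3.

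The pigment and melanosome list had 20 of 29 genes above background. PMEL, which forms the fibrils of the melanosome, had signals of 3442.0, 3538.3 and 4004.9 in replicates 1, 2 and 3. BACE2, the protease that cuts PMEL, had 2355.5, 2335.5 and 2570.6, and RAB38, a GTPase of melanosome traffic, 2006.1, 1935.8 and 2164.8. AP3D1 (1535.1 ± 71.8) and BLOC1S1 (1516.9 ± 225.9) belong to complexes that sort cargo to lysosome-related organelles. CAPN3, a calpain protease, had a mean of 1187.2 ± 71.7.

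Of the enzymes that make melanin, TYR had signals of 678.2, 602.8 and 678.6, so that the 3 arrays lay close together. TYRP1 had 179.0, 183.4 and 214.1 and passed on replicate 3 only. DCT, a further listed gene of melanin synthesis, had no named probe and was not read. SLC45A2, a melanosome transporter, had 374.3, 394.3 and 374.9. GPNMB, whose promoter is shown above, had 857.8, 598.1 and 975.3, and replicate 2 was the lowest. OCA2, a melanosome membrane protein, passed on 2 arrays and LYST on 1. MLANA (melan-A), SLC24A5, GPR143, TRPM1, ATP7A and HPS4 were not above background on any array. MLANA was read by 1 probe, with a mean signal of 189.4.

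**Figure D3:**
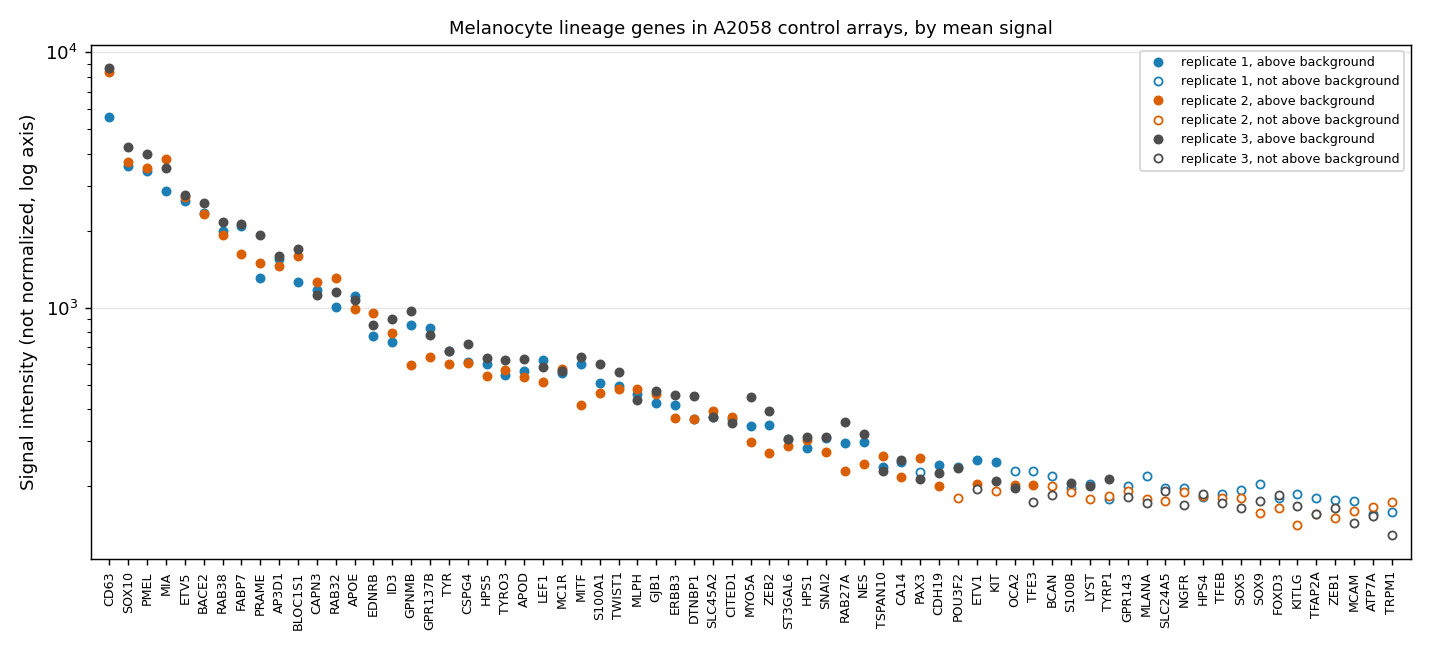
Signal (log axis, not normalized) of the melanocyte transcription factors, pigment genes and surface genes in each control siRNA replicate, ordered by mean signal, with filled points above background and open points not above it. CD63, SOX10 and PMEL are at the left, and open points fill the right from BCAN on, apart from single arrays of S100B, LYST and TYRP1.

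Of the melanocyte surface and neural crest genes, 16 of 21 were above background. CD63, a tetraspanin of melanosomes and endosomes, had signals of 5591.3, 8408.1 and 8689.5 without normalization, lowest in replicate 1. Its range after quantile normalization of the 3 arrays was 0.322 (log2). MIA, a secreted protein of melanoma cells, had 2873.3, 3813.7 and 3537.3. FABP7, a fatty acid binding protein of neural crest cells, had 2096.2, 1616.5 and 2125.2. EDNRB, the endothelin receptor of melanoblasts, and MC1R, the receptor for melanocyte-stimulating hormone, had means of 861.3 ± 87.3 and 564.7 ± 11.3. APOE (1057.1 ± 62.0) and CSPG4 (647.7 ± 61.8), a proteoglycan of melanoma cells, were also above background. KIT, the receptor for stem cell factor, passed on 2 arrays, and S100B on 1. NGFR, MCAM and BCAN passed on none.

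The list of invasive and undifferentiated melanoma genes had 13 of 20 genes above background (65%), against 41.7% over all named genes. Members of this list and of the melanocyte lists were thus above background in the same samples. The share is not read as the presence of an invasive programme. CXCL8, the chemokine interleukin 8, had signals of 2406.6, 2665.5 and 2456.7. AXL, a receptor tyrosine kinase, had 1629.6, 1749.3 and 1682.6. LOXL2, an enzyme that cross-links collagen, had a mean of 1913.8 ± 198.0, and CCN2, a matricellular growth factor, 1235.7 ± 168.9. CCND1 (cyclin D1) and DKK1, a secreted Wnt antagonist, had means of 734.6 ± 114.4 and 609.6 ± 53.3. EGFR (with 4 probes), WNT5A, CCN1, PDGFRB and IL6 were not above background on any array, and FOSL1 and JUN passed on 1. These are bulk cultures, in which fewer cells with a transcript and less transcript per cell cannot be told apart.

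PAGE5, which encodes CT16, was not above background on any control array. Its signals were 194.8, 151.7 and 153.3 in replicates 1, 2 and 3, with detection values of 0.255, 0.815 and 0.616. The array therefore gave no level for CT16 in the control cells, and CT16 is not read as absent. The paper describes A2058 as CT16 positive and took it as a positive control for CT16 mRNA and protein. Of the whole cancer-testis list, 13 of 23 genes were above background (56.5%, against 41.7% over all named genes). MAGEB2 had signals of 1686.2, 1813.2 and 1983.5, SSX2 1461.0, 1443.5 and 1489.8, and MAGEA1 989.0, 942.4 and 1122.8. PRAME, a repressor of retinoic acid signalling in cancer cells, had 1304.2, 1497.1 and 1926.8, highest in replicate 3. MAGEA6 (825.6 ± 75.4), MAGEA3 (607.4 ± 72.3) and PAGE1 (403.7 ± 21.7) were above background, while PAGE2B, PAGE4, MAGEA2, MAGEA4 and MAGEC2 were not on any array. Members of the MAGEA and SSX families share much of their sequence, and their signals may be shared between them.

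Apart from PAGE5 and PAGE2B, the genes with a probe that the study names in its expression work were above background in the control cells. MT2A, a metal-binding metallothionein, had signals of 10307.7, 16294.9 and 14498.1. BIRC5 (survivin, an inhibitor of apoptosis) had a mean of 2800.1 ± 482.8, and CTSL, a lysosomal protease, 2199.1 ± 188.1. RAMP1, a partner of the calcitonin receptor family, had 2346.8 ± 136.4, and RBPMS2, an RNA-binding protein, 2619.5 ± 225.4. ARPC1B, a subunit of the ARP2/3 complex that branches actin, had 7528.0 ± 904.5, and SERPINA5, a serine protease inhibitor, 667.7 ± 42.6. CYB5R2, a cytochrome b5 reductase, had 674.4 ± 28.9, DDAH1, which breaks down methylated arginine, 634.1 ± 92.3, and RRP7A, a ribosome assembly factor, 983.0 ± 220.7. CDC14B, a phosphatase, had 1821.7, 3610.6 and 2183.4 with its brightest probe, so that replicate 2 was well above the others.

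Markers of other cell types were mostly at background. None of 19 leukocyte, 7 erythroid or 12 muscle markers was above background on 3 of 3, and the leukocyte marker PTPRC (CD45) was not above it with any of 3 probes. LCP1 and CD3D passed on 2 arrays, with means of 211.1 and 209.8. For the neuron and glia list, TUBB3 alone of 14 was above background (1854.8 ± 218.4), a neuronal tubulin that is also found in melanocytes. For liver it was TF, transferrin, alone of 12 (631.2 ± 86.3), while ALB was at background.

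Of the keratinocyte and epithelial markers, 5 of 22 were above background. The keratins of simple epithelia KRT18 and KRT8 had means of 2566.5 ± 653.6 and 361.8 ± 37.5, and KRT10 1291.6 ± 76.6. CLDN1, also on the list of tight junction genes, had a mean of 398.7 ± 52.6. ESRP1, the last of the 5, had signals of 238.2, 218.1 and 220.6. KRT19 passed on 2 arrays, and EPCAM and IVL on 1. CDH1 (E-cadherin), KRT5, KRT14, KRT1, KRT7 and DSP were not above background on any array. Of 18 fibroblast markers, 5 were above background, led by VIM (vimentin), the intermediate filament of mesenchymal cells, with signals of 10922.3, 12455.5 and 14313.5. ACTA2 (1806.9 ± 107.4), S100A4 (1287.2 ± 146.6), LUM (510.5 ± 116.3) and FAP (294.6 ± 29.6) were the others, of which VIM, ACTA2 and S100A4 are not restricted to fibroblasts. LUM encodes the proteoglycan lumican and FAP a surface protease. The fibrillar collagen genes on this list, COL1A1, COL1A2 and COL3A1, were not above background on any array, nor was PDGFRA. DCN and FBN1 passed on 2 arrays and THY1 on 1. Among 14 endothelial markers, EGFL7 (764.5 ± 57.6), SOX18 (746.1 ± 20.8) and ENG (315.6 ± 16.9) were above background. PECAM1, VWF and KDR, also on this list, were not above background on any array, and CDH5 passed on 1.

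Adhesion genes differed by list. Over the 8 lists of this class, 90 of 187 genes (48.1%) were above background, near the 41.7% over all named genes. The count was 18 of 22 for focal adhesion and actin linkers and 7 of 24 for integrin subunits. The integrin list also holds ITGAM and ITGB2, which are on the leukocyte list as well. Integrins are receptors of an alpha and a beta chain that bind matrix proteins. ITGB5, a beta chain of vitronectin receptors, had signals of 3254.9, 3160.5 and 3471.1. ITGB1, the beta chain of most matrix receptors, had 1763.6, 1544.3 and 2782.7, with replicate 3 apart from the others. ITGAE had 1076.0, 932.1 and 991.9. ITGB3 (359.2 ± 28.0), ITGA5 (350.5 ± 20.5), ITGA9 (273.9 ± 24.9) and ITGA2 (251.1 ± 29.2) were the others. ITGAV, the partner of the beta 3 and beta 5 chains, was not above background on any array, nor were ITGA1, ITGA3, ITGA4 and ITGA6. Each of these was read by 1 probe.

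Cadherins hold cells together through calcium-dependent contacts, and catenins link them to actin. CDH2 (N-cadherin) had signals of 1735.0, 1399.5 and 2038.9, and all its arrays were above background, whereas CDH1 had a mean of 163.3 and passed on none. CTNNA1 (711.8 ± 89.2), CTNNB1 (353.3 ± 11.5), CTNND1 (302.2 ± 41.1) and JUP (376.2 ± 24.8) gave the catenin side of the complex. CDH3 (269.2 ± 20.3) and CDH19 (222.8 ± 21.0) were also above background. In all, 9 of 25 genes of this list passed.

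**Figure D4:**
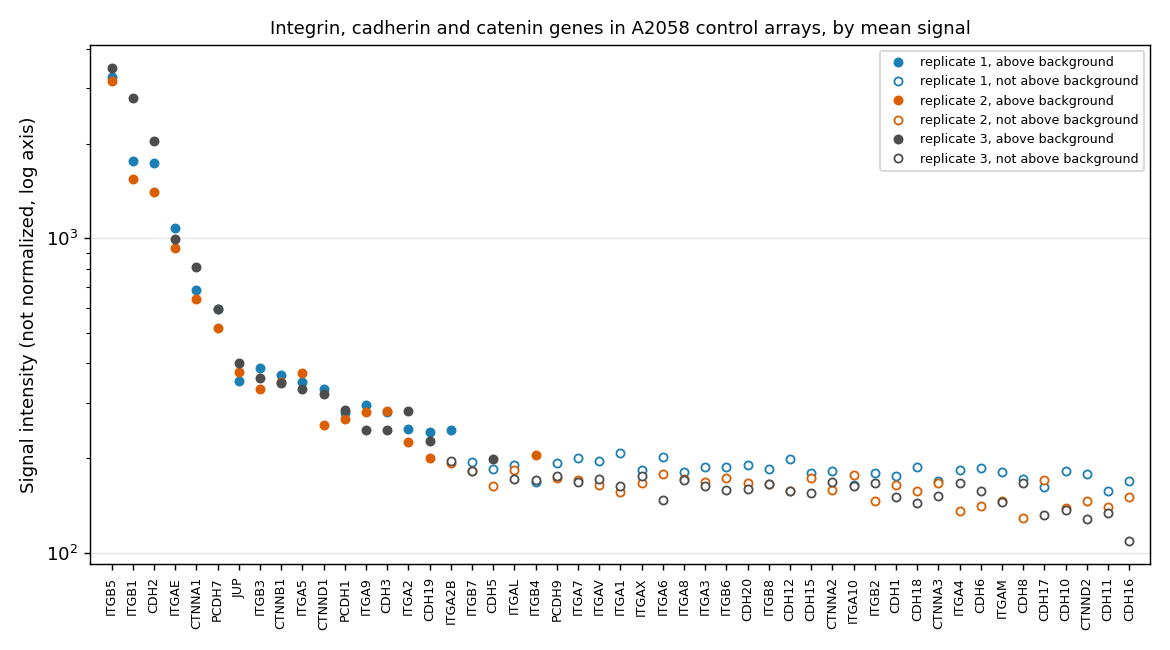
Signal (log axis, not normalized) of integrin, cadherin and catenin genes in each control siRNA replicate, ordered by mean signal, with filled points above background and open points not above it. ITGB5, ITGB1 and CDH2 are the 3 highest, with means of 3295.5, 2030.2 and 1724.5, and open points fill the right of the plot apart from single arrays of ITGA2B, CDH5 and ITGB4.

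Of other adhesion molecules, 15 of 30 were above background. SDC3 and SDC1, cell surface proteoglycans, had means of 6098.4 ± 417.8 and 1480.8 ± 126.9. CD99 (2129.5 ± 246.6), BSG (1939.9 ± 261.7), CD44 (1205.2 ± 26.4), the hyaluronan receptor, and CD47 (978.3 ± 127.0) followed. ICAM1, VCAM1, ALCAM and MCAM, which are known from melanoma progression, were not above background on any array. On the inner side of the membrane, the actin cross-linker ACTN1 had signals of 6945.0, 6793.7 and 7763.8. VASP (6258.1 ± 686.5), which extends actin filaments, ILK (4582.5 ± 741.1), the integrin-linked kinase, and ZYX (1522.6 ± 241.5) were likewise above background. TNS1 was the only member of that list that passed on no array.

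Matrix genes differed by type. The basement membrane collagens COL4A1 and COL4A2 had means of 1706.3 ± 394.5 and 1093.7 ± 233.7. Of all collagens, 8 of 24 were above background (33.3%, against 41.7% over all named genes). Laminins and matricellular proteins had 14 of 21. THBS2, an adhesive glycoprotein, had signals of 4736.4, 3428.8 and 5335.4, and FN1, fibronectin, 2120.5, 1302.7 and 2490.5. In both, replicate 2 was the lowest. The laminin chains LAMC1 (1431.4, 1077.0 and 1937.7) and LAMA5 (1051.6, 684.1 and 1170.4) had the same order of arrays. SPP1 (osteopontin) had 2354.9 ± 317.5.

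Among matrix proteases and their inhibitors, 13 of 23 were above background (56.5%, against 41.7% over all named genes). TIMP1, an inhibitor of the matrix metalloproteinases, had signals of 9640.0, 12544.5 and 11004.6, and TIMP2 and TIMP3 means of 1862.9 ± 263.3 and 1438.3 ± 173.0. MMP17 (1801.1 ± 122.9) and PLAU (urokinase, 1439.2 ± 71.7) were above background with MMP1, whereas MMP3, MMP7, MMP8, MMP10 and MMP13 were not on any array. Of connexins and tight junction genes, 6 of 18 passed, among them CLDN12 (548.3 ± 71.9), TJP1 (463.1 ± 85.3) and GJB1 (451.4 ± 24.7). GJA1, the connexin 43 gene, had 1 probe and was not above background.

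Metabolic genes were above background more often than any class other than the housekeeping lists, with 225 of 290 (77.6%). Of the glycolysis list, 17 of 23 genes passed. ENO1 had signals of 24541.6, 32718.4 and 33469.6, and GAPDH 17341.3, 24745.9 and 23733.4. LDHA, which turns pyruvate into lactate, had 7960.2, 8666.8 and 10436.5, and PKM, pyruvate kinase, 5452.7, 8268.3 and 7761.8. Without normalization, replicate 1 was the lowest of the arrays for all 4 genes. After quantile normalization of the 3 arrays, the range was 0.057 (log2) for ENO1 and 0.150 for GAPDH. Of the hexokinases, which start the pathway, HK1 had a mean of 5684.9 ± 514.4 with its brightest probe. Its other probes (means of 166.0, 162.3 and 155.9), HK2 (192.9) and HK3 (141.8) were not above background on any array. PGK2 and LDHC, the testis isoforms, and PGAM2, the muscle isoform, were also at background.

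Glucose and monocarboxylate transporters had 4 of 12 above background, with means of 745.5 ± 116.7 for SLC2A6, 490.2 ± 23.3 for SLC2A3 (GLUT3) and 364.2 ± 15.4 for SLC2A1 (GLUT1). SLC2A2 and SLC2A4, the liver and muscle transporters, passed on none. In the pentose phosphate pathway, TKT (7234.7 ± 1184.2) and TALDO1 (6798.8 ± 1207.9), of its non-oxidative branch, led 5 of 8 genes. Of gluconeogenesis and glycogen genes, 8 of 13 passed. PCK2, the mitochondrial form of the enzyme that makes phosphoenolpyruvate, had a mean of 864.0 ± 54.0, and PCK1, the cytosolic form, was not above background. G6PC1, which releases glucose in liver, was not above background either, and the brain form of glycogen phosphorylase, PYGB, had 2876.0 ± 550.8.

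In the mitochondrion, 20 of 21 citric acid cycle genes and 44 of 49 respiratory chain subunits were above background. SDHC (4637.9 ± 850.6), MDH2 (4175.9 ± 564.0) and IDH2 (3031.1 ± 584.6) had the highest signals of the cycle, and SUCLG2 passed on 1 array. In the respiratory chain, NDUFS6 of complex I had signals of 12483.7, 17929.6 and 16740.8, and COX4I1 of complex IV 7440.5, 10721.8 and 9993.0. The 5 subunits that passed on no array were NDUFB3, ATP5MC2, COX4I2, COX6A2 and COX7A1. COX6A2 and COX7A1 are isoforms of heart and skeletal muscle, and COX4I2 is a lung isoform.

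Lipid genes of synthesis and of oxidation were both above background. FASN, the fatty acid synthase, had signals of 5186.3, 4822.2 and 6606.5, and SCD, which makes monounsaturated fatty acids, 5234.9, 4352.7 and 5332.3. ACLY, which supplies acetyl-CoA, had a mean of 3590.7 ± 682.6. ACACA, which makes malonyl-CoA for FASN, was read by 1 probe and was not above background. In all, 11 of 18 genes of fatty acid synthesis, 15 of 17 of sterol synthesis and 15 of 18 of fatty acid oxidation passed. FDPS (4411.4 ± 846.1) and IDI1 (1867.9 ± 410.3) of the sterol pathway were examples, with ECHS1 (10013.2 ± 1502.1) and ACADVL (7602.1 ± 1003.1) of oxidation. CPT1A and CPT1B, which carry fatty acids to the mitochondrion, were at background and the brain form CPT1C was above it (251.9 ± 4.2).

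Amino acid and one-carbon metabolism had 14 of 18 genes above background for serine and glycine, and 15 of 17 for glutamine, proline and aspartate. PHGDH, the first enzyme of serine synthesis, had signals of 5581.6, 7066.7 and 6975.1, and SHMT2, the mitochondrial enzyme that makes glycine, 3550.0, 4822.9 and 4396.1. SLC7A11, the cystine carrier, and SLC1A5, the glutamine carrier, had means of 4049.9 ± 558.7 and 4006.4 ± 390.3. Of arginine genes, ASL had 703.9 ± 135.3, whereas ASS1, which makes its substrate argininosuccinate, was near the limit with 243.0, 244.4 and 197.4. A further probe of ASS1 was at background on all arrays. OTC, ARG1, NOS1 and NOS2 were not above background. Polyamine genes were, with SRM, spermidine synthase, at 11926.2 ± 1770.8, ODC1 at 1741.9 ± 57.4 and the ODC1 regulator OAZ1 at 15714.8 ± 1646.5.

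Nucleotide synthesis had 19 of 20 genes above background, among them IMPDH2 (9152.0 ± 1881.6), which makes guanine nucleotides, and TK1 (5278.6 ± 1115.3), the thymidine kinase of dividing cells. UMPS passed on none. Of 16 genes of metal handling, 8 were above background, led by FTL, the ferritin light chain, with signals of 14602.4, 20669.9 and 19598.7. Of the metallothioneins, MT1X (626.8 ± 16.6) and MT1H (463.7 ± 24.0) were above background with MT2A, and MT1E, MT1F, MT1G and MT3 were not. Antioxidant enzymes had 17 of 21, with PRDX1 at 11677.2 ± 1277.4, SOD1 at 5818.9 ± 829.1 and NQO1 at 4690.2 ± 456.9. GPX1 and SOD3 were not above background.

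Of secreted signals and receptor tyrosine kinases, 27 of 79 (34.2%) were above background, near the share over all named genes. GDF15, a stress-induced cytokine of the TGF-beta family, had signals of 4295.2, 3653.5 and 4081.5, and IL1B, interleukin 1 beta, 1803.5, 1740.4 and 1728.3. CXCL1 (1018.1 ± 15.1), IL18 (774.7 ± 116.8) and VEGFB (757.5 ± 77.0) followed CXCL8. VEGFA, FGF2, TGFB1 and TGFB2 were not above background on any array. Of 38 receptor tyrosine kinases, 12 passed, led by AXL, EPHA2 (1047.3 ± 18.8), FGFR4 (670.1 ± 55.7) and the collagen receptor DDR1 (648.7 ± 17.1). ERBB3 (413.9 ± 42.7), the receptor for neuregulin, was above background, and EGFR, ERBB2 and ERBB4 were not. MET, IGF1R and ALK passed on 1 array.

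The spread between the control arrays was taken on log2 signals after quantile normalization of the 3 arrays, which gives each array the same distribution. For the 8157 members the median SD was 0.113 (log2), with quartiles of 0.071 and 0.166. The value rests on the normalization, with 0.198 after a shift of each array to the same median and 0.177 after neqc, which subtracts background. The median range from the lowest to the highest array was 0.215, or 1.161-fold. A range under 0.2 was seen for 3681 probes (45.1%), a range over 0.5 for 408 (5%), and a range over 1 for 6. The SD was smallest in the tenth of members with the lowest signals (median 0.078) and between 0.104 and 0.126 in the others. Members with low signals had to pass the limit on every array. Over all probes with values, which need not pass it, the median SD was 0.088. The reason for the smaller SD at low signals was not tested, and nothing is read from it.

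Replicates 1 and 3 were closest to each other, with a correlation across probes of r = 0.9936, against 0.9846 for replicates 1 and 2 and 0.9877 for replicates 2 and 3. Probes are not independent replicates, and these values describe the pairs only. A difference over 0.5 on the log2 scale was found for 0.319% of the members between replicates 1 and 3, for 3.43% between 1 and 2 and for 2.71% between 2 and 3. Replicate 2 was the farthest from the other two for 47.5% of the members, replicate 1 for 30% and replicate 3 for 22.5%. With a shift of each array to the same median in place of quantile normalization, the share of replicate 2 was 11.9%. Over replicates 1 and 3 alone, without replicate 2, the median SD was 0.070. It was 0.098 without replicate 1 and 0.107 without replicate 3. These are SDs of 2 arrays and are not compared with the SD of 3.

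The 15 genes with the largest range were RPL11, HSP90AA1, ITGB1, KTN1, SNX10, CBX3, RPL8, SLC26A2, DYNC1H1, DEK, PRKDC, FN1, CDC42EP1, MYH10 and OSTC. The set depends on the normalization, since 8 of the 15 were shared after a median shift and 2 after neqc. RPL11, a ribosomal protein gene, had normalized log2 signals of 13.79, 12.69 and 13.42 in replicates 1, 2 and 3. HSP90AA1, the inducible cytosolic HSP90, had 11.68, 11.01 and 12.06, and PRKDC, the catalytic subunit of the DNA-dependent protein kinase, 10.12, 9.23 and 10.05. Replicate 2 was the lowest in these 3 genes. RPL8 (11.27, 12.03 and 12.19) and CDC42EP1 (9.07, 9.93 and 9.50) were lowest in replicate 1 instead. For the 100 members with the largest range, replicate 2 lay farthest and below the others in 71, and farthest and above them in 8.

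For ITGB1 and for CBX3, which encodes a heterochromatin protein, more than 1 probe was above background. These probes of each gene moved the same way. ITGB1 had signals of 508.2, 310.7 and 711.5 with its probe of the largest range, and 1763.6, 1544.3 and 2782.7 with the other such probe. Its further probes, with means of 179.6 and 171.5, were not above background on any array and give no level. CBX3 had 1037.8, 704.3 and 1484.9, and 513.3, 373.0 and 743.6. Replicate 2 was the lowest and replicate 3 the highest with these 4 probes above background. The smallest ranges were those of RPL41, EEF1D, GOLPH3L, PDE8B and HELZ2, at 0.00. For RPL41 and EEF1D the value follows from the normalization, since each probe had the same rank on every array and the same rank takes the same value.

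After quantile normalization of the 3 arrays, the deviation of replicate 2 went with the length of the gene. Gene span, from start to end with introns (RefSeq, GRCh38.p14), was known for 6758 of the 6761 genes above background, and the genes were divided by it into 5 groups of equal size. In replicate 2 the median deviation from the mean of the 3 arrays was 0.069 (log2) for the shortest genes, with a median span of 4708 bases, and then 0.051, 0.015, -0.013 and -0.055 for the longest, with 129676 bases. In replicate 1 it ran the other way, from -0.044 to 0.040, and in replicate 3 from -0.026 to 0.010. The 177 genes more than 0.3 below the mean in replicate 2 had a median span of 50830 bases, and the 37 genes more than 0.3 above it 7725 bases, against 25942 bases for all genes above background. The GC content of the promoter went with it little, with medians of 0.000 to 0.022 over 5 groups in replicate 2. The deviations of the 3 arrays sum to 0 for each gene and are thus not independent. This relation was looked for after the data had been seen, and its cause was not tested. It is given for this normalization only, and its dependence on the normalization was not examined.

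**Figure D5:**
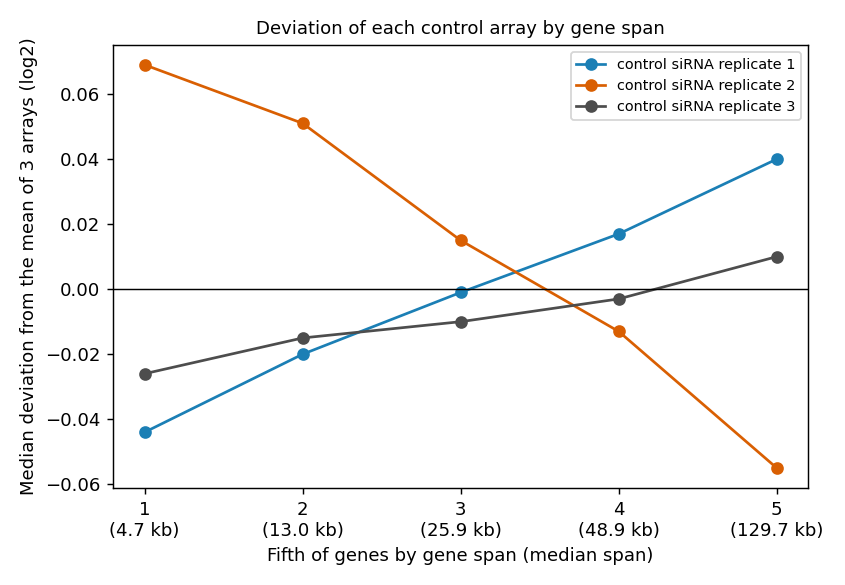
Median deviation (log2, quantile-normalized) of each control siRNA replicate from the mean of the 3 arrays, for 5 equal groups of the genes above background by gene span. Replicate 2 falls from 0.069 in the shortest group to -0.055 in the longest, and replicate 1 rises from -0.044 to 0.040.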

How the data were processed

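Total RNA of A2058 cells treated with control siRNA for 48 h was measured on 3 arrays, grouped by their labels. For every probe the authors deposited its signal intensity, averaged over beads and without normalization. Beside it stands a detection p-value, also deposited by the authors, in steps of 0.000659. They also deposited intensity values after quantile normalization of all 6 arrays, used here as an alternative. Bead summarisation and any background subtraction were not given in the sources used here. The CT16 siRNA arrays entered no result other than 1 alternative normalization.

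Of 47296 probes, 7 were empty and 47289 held values. The platform annotation named 18468 probes (16225 genes), with 0 probes of several genes. The columns of no sample of this series numbered 0. A gene was read by its probe above background on the most arrays and, among equals, by the one with the highest mean signal. Signals are means ± SD over 3 arrays. Further probes at background are mentioned for some genes only. FN1, FGFR4, KRT18 and DDR1, for example, also had such probes. Spread was computed from log2 signals, quantile-normalized with limma 3.58.1 in R 4.3.3. No groups were compared, so there was no test and no p-value was computed. The scripts were tested on simulated data. With 3 arrays, each SD is itself imprecise.

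The 40 gene lists held 959 entries, of which 842 matched by symbol, 27 by an older symbol and 90 had no named probe. Members and lists were chosen with earlier results of these data known. The genes named were the 25 with the highest signal, in each list up to 6 above background with the highest signals, up to 6 on no array and up to 4 on only 1 or 2, the 15 largest and 5 smallest ranges, the genes nearest the threshold (5 on each side), listed genes whose probes disagreed, and those the study names. Further list members given as examples, such as TYR, SLC45A2, GPNMB, MC1R, CSPG4, CDH3, CDH19, ZYX, CPT1C and ERBB3, and the genes under the closing observations were chosen after their values were seen. Alternatives were other detection thresholds (0.05 and 0.005), 2 of 3 arrays, other rules for several probes, no normalization, a median shift, neqc (offset 16), normalization over 6 arrays, the deposited normalized values and each array left out. The relation to gene span and promoter GC was added after the data had been seen.

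Promoters and gene spans were taken from RefSeq (GRCh38.p14). Plots used matplotlib 3.10.9 (Python 3.11.15).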

Additional observations from a re-analysis of the deposited data

How the results depend on the processing

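The counts held within 1.5 times under all alternatives run, with 7771 to 9260 probes above background, 6115 to 7517 genes and 481 to 515 listed genes (main values 8157, 6761 and 492). Leaving out an array gave 8215 to 8952 probes, 6797 to 7326 genes and 493 to 510 listed genes. Among the single lists, the leukocyte markers went from 0 to 2, LCP1 and CD3D, with 2 of 3 arrays required or without replicate 1. Of the 25 genes with the highest signal, 24 or 25 were shared with each alternative. The median SD of 0.113 was 0.140 without normalization, 0.198 after a median shift, 0.177 after neqc and 0.088 over all probes with values. Leaving out an array gave 0.070 (without replicate 2) to 0.107 (without replicate 3). The latter are SDs of 2 arrays and are not compared with the SD of 3. Replicate 2 was farthest for 37.6% of the probes without normalization and for 11.9% after a median shift, against 47.5%. Of the 15 genes with the largest spread, 8 were shared after a median shift and 2 after neqc. The causes of these shifts were not tested. No paired analysis was possible because only the control group is described. A signal below the detection limit of an array, 195.3 to 235.6, gives no level.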

Other observations

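Some genes of cell division were above background in the control cells and others were not. CDC20, an activator of the anaphase-promoting complex, had signals of 9700.5, 14885.3 and 12924.7 in replicates 1, 2 and 3. MCM7 and MCM2, subunits of the replication helicase, had 9868.7 ± 1265.2 (SD, n = 3) and 5205.6 ± 255.2, and CCNB1, cyclin B1, 3113.3 ± 371.2. MKI67, the proliferation marker Ki-67, was read by 1 probe and passed on 1 array only, with 212.0, 210.6 and 164.1. Of interferon-inducible genes, IFITM3 had 12359.8 ± 2025.3 and IFI6 1782.2 ± 190.3, and IFIT1 passed on 1 array.

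Of genes that control the RB and p53 pathways, CDKN2A was not above background with either of its probes (mean signals of 147.8 and 190.4), nor was MTAP, its neighbour on the chromosome (157.1). CDKN2B, from the same region, had 664.5, 487.7 and 660.1 with 1 probe and a mean of 140.3 with the other. RB1 (161.3) and MDM2 (170.4) were each at background with a single probe. CDK4 had 1126.6, 1407.4 and 1822.4.

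Other single probes are given as values. AIRE, known for its role in the thymus, had 4164.5, 5210.1 and 4824.7, and VCX, a gene of the testis, 3935.5, 5150.7 and 5156.1. ZNF91, a zinc finger repressor, had 10249.4, 12977.0 and 11961.4. RAD51B, a DNA repair gene, had 4069.7, 4473.8 and 4854.9 with 1 probe, while its other probes had means of 182.2 and 203.4. All genes of these observations were chosen after their values were seen.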
